A study of Mus musculus with 15 samples.

Results

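The genes described here are the monocyte-attracting CC chemokines and their receptors: 8 ligand genes (*Ccl2*, *Ccl7*, *Ccl12*, *Ccl8*, *Ccl3*, *Ccl4*, *Ccl6* and *Ccl9*) and 2 receptor genes (*Ccr1* and *Ccr2*), chosen by gene symbol. All 10 were found among the 55487 genes listed, and all 10 were among the 19006 genes that reached 10 counts in 5 or more libraries and were tested. RNA-Seq was performed on conjunctival tissue of female WT mice aged 9 to 12 weeks, whose strain is BALC/c in the labels and BALB/c in the methods. Every mouse had been skin sensitized with MC903 (calcipotriol, a vitamin D analog that evokes dermatitis, 2.5 nmol per day for 7 days) plus OVA (10 μg per dose). The eyes were challenged daily from day 18 to day 24, with PBS in the PBS group and with OVA in the other groups, to ask which transcripts followed ocular antigen and which of them depended on IL-4Rα. The isotype group received an isotype control antibody and the anti–IL-4Rα group a blocking antibody to the IL-4 and IL-13 receptor subunit, each at 25 mg/kg on days 10, 14, 18 and 21. The labels give the antibody of the PBS group as N/A, so the isotype and PBS groups differed in antibody as well as in challenge, and these cannot be told apart. Each group had 5 libraries.

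Chemokines are small secreted proteins that guide leukocytes along a gradient by engaging G protein–coupled receptors. CCR2, the receptor of CCL2, CCL7 and CCL12, brings inflammatory monocytes out of the bone marrow and into tissue, and CCR1, which binds CCL3, CCL6, CCL7 and CCL9 among others, is carried by monocytes, macrophages, neutrophils and other myeloid cells. CCL8 of the mouse belongs to the monocyte chemoattractant group by sequence and is known as a ligand of CCR8, a receptor of Th2 cells. In allergic conjunctivitis, recruited myeloid cells accompany the eosinophils, basophils and T cells of the late reaction.

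On GRCm38 the ligand genes lie in a pair of clusters on chromosome 11. The monocyte chemoattractant (MCP) cluster holds *Ccl2* (ENSMUSG00000035385, chr11:82035571-82037453), *Ccl7* (ENSMUSG00000035373, chr11:82045712-82047525), *Ccl12* (ENSMUSG00000035352, chr11:82101845-82103400) and *Ccl8* (ENSMUSG00000009185, chr11:82115185-82116799). The macrophage inflammatory protein (MIP) cluster holds *Ccl9* (ENSMUSG00000019122, chr11:83572919-83578636), *Ccl6* (ENSMUSG00000018927, chr11:83587882-83593087), *Ccl3* (ENSMUSG00000000982, chr11:83647844-83649355) and *Ccl4* (ENSMUSG00000018930, chr11:83662584-83664683). The receptor genes *Ccr1* (ENSMUSG00000025804, chr9:123962124-123968692) and *Ccr2* (ENSMUSG00000049103, chr9:124101950-124113557) are on chromosome 9. All 10 are annotated as protein coding. *Ccl2* overlaps 1 gene of the opposite strand (*Gm17268*) and *Ccl6* another (*E230016K23Rik*), and the use of strand in counting is not stated. Several ligands are close paralogs, and reads that they share may have been lost or divided.

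Library totals ran from 48622246 to 87745024 estimated counts, with medians of 55243773 in the PBS group, 55573584 in the isotype group and 54178201 in the anti–IL-4Rα group. The depth was ample for *Ccl8* (1615 to 24600 counts per library) and thin for *Ccl4* (5 to 110 counts) and *Ccl3* (7 to 163 counts). A pair of libraries stood apart from their group: the median Spearman correlation across genes with group mates was 0.971 for isotype replicate 2 and 0.980 for anti–IL-4Rα replicate 3, against 0.985 to 0.991 for the others (genes are not independent replicates). Lacrimal gland transcripts also varied, with a mean log2 CPM of 8 acinar markers from -0.58 in PBS replicate 1 to 11.59 in anti–IL-4Rα replicate 4. The labels do not state whether each library came from 1 animal, so p-values measure the spread between these libraries. CPM below are counts per 1000000 counts of a TMM-normalized library, given as mean ± SD (n = 5), and fold changes are isotype over PBS, anti–IL-4Rα over isotype or anti–IL-4Rα over PBS.

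All 10 genes were higher in the isotype group than in the PBS group (edgeR's quasi-likelihood test, Benjamini-Hochberg adjusted p under 0.05 over all genes tested), where 9.53% of all genes were called higher and 7.49% lower. Their median log2 fold change was 1.73, against -0.01 over all genes. In the anti–IL-4Rα group 4 of 10 (*Ccl7*, *Ccl8*, *Ccl9* and *Ccr1*) were called lower than in the isotype group and 0 higher, where 8.13% of all genes were called lower and 6.73% higher, and the median was -0.98 against 0.01. Against the PBS group 3 of 10 (*Ccl8*, *Ccl9* and *Ccr2*) were called higher in the anti–IL-4Rα group and 0 lower, where the shares of all genes were 2.28% higher and 1.44% lower, and the median was 0.88 against 0.00. Each group enters 2 of the 3 comparisons, so these share libraries and their values are given side by side only.

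**Figure D1:**
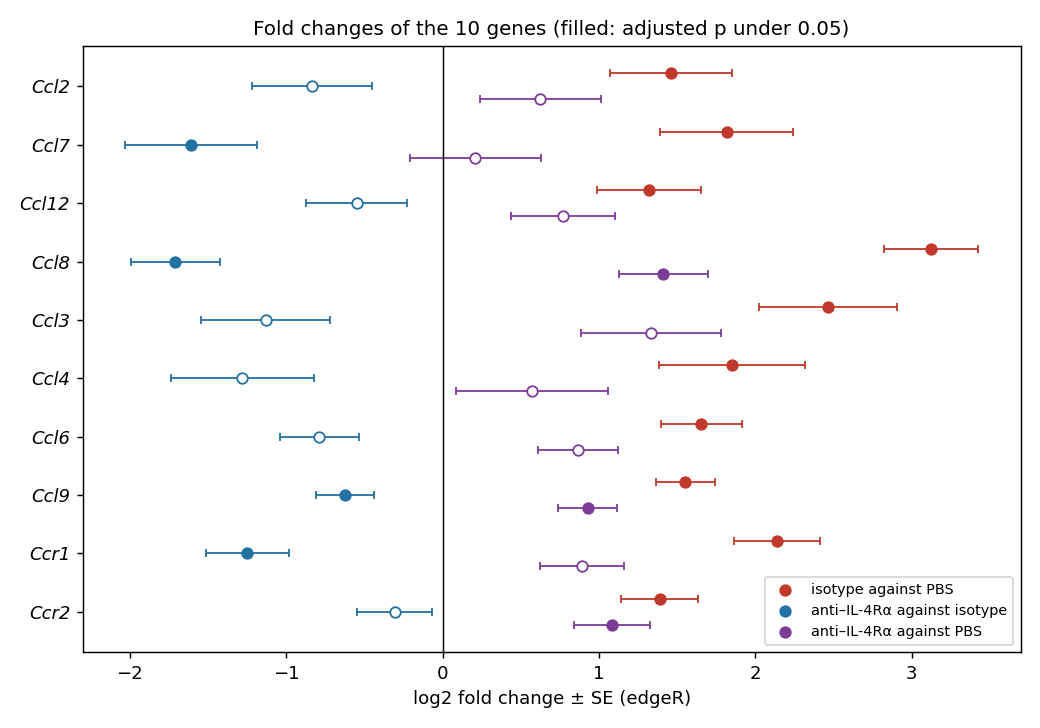
Log2 fold change (horizontal axis, edgeR estimate ± SE, 5 libraries per group) of each of the 10 genes in the 3 comparisons, with filled points where the adjusted p was under 0.05. All 10 points for isotype against PBS lie to the right of 0, from 1.32 for Ccl12 to 3.12 for Ccl8, and those for anti–IL-4Rα against isotype lie to the left, from -0.31 for Ccr2 to -1.71 for Ccl8.

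The isotype and PBS libraries did not overlap for 6 of 10 genes (*Ccl8*, *Ccl3*, *Ccl6*, *Ccl9*, *Ccr1* and *Ccr2*), a pattern that 6.85% of all genes showed. All isotype libraries lay above all anti–IL-4Rα libraries for 1 of 10 (*Ccl8*), with 4.96% over all genes. All anti–IL-4Rα libraries lay above all PBS libraries for 6 of 10 genes, again *Ccl8*, *Ccl3*, *Ccl6*, *Ccl9*, *Ccr1* and *Ccr2*, with 2.98% over all genes. In such cases the exact permutation test (two-sided, on log2 CPM, 252 splits of 10 libraries) gave p = 0.00794, the smallest it can give here. In bulk tissue, more cells of a type and more RNA per cell cannot be told apart.

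RefSeq promoters (GRCm38.p6, 250 bases before to 50 bases after the start of transcription) were matched for 7 of the 10 genes. They are shown for *Ccl8*, which had the highest level and the largest change, for its neighbor *Ccl12*, for *Ccl9*, and for the receptor pair *Ccr1* and *Ccr2*, of which only *Ccr1* was called lower under IL-4Rα blockade. Their positions are chr11:82114935-82115234 (*Ccl8*, plus strand), chr11:82101595-82101894 (*Ccl12*, plus strand), chr11:83578587-83578886 (*Ccl9*, minus strand), chr9:123968643-123968942 (*Ccr1*, minus strand) and chr9:124101933-124102232 (*Ccr2*, plus strand). Each is written 5′ to 3′ on the strand of its gene, and capitals mark matches to the motifs searched.
Ccl8: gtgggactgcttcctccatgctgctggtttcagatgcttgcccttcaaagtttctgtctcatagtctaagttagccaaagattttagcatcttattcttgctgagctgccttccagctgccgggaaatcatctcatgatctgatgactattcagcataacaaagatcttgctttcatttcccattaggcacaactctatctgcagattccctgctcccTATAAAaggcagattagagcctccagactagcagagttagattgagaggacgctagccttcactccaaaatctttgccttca
Ccl12: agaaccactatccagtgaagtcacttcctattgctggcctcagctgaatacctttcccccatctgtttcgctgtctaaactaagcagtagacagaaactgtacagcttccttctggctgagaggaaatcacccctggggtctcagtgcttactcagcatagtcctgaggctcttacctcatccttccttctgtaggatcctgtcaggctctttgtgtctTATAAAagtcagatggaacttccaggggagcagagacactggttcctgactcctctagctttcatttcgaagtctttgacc
Ccl9: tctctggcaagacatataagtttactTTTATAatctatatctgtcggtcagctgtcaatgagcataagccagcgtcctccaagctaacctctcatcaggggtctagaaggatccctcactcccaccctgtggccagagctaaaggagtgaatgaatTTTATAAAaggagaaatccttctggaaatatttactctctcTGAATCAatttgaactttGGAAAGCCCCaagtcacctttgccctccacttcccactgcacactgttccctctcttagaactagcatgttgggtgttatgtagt
Ccr1: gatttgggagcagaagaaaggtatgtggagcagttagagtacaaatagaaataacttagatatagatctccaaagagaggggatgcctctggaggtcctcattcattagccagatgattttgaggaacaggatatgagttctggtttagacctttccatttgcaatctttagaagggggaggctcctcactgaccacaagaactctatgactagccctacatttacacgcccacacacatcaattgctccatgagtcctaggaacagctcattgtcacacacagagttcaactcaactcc
Ccr2: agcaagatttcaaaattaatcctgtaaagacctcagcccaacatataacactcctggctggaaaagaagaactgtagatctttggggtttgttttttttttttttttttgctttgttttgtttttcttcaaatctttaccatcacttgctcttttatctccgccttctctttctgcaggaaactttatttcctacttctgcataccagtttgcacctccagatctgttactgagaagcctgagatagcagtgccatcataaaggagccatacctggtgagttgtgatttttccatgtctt
The motifs, searched on both strands, were a STAT6 type (TTC and GAA with any 4 bases between them), an AP-1 type (TGANTCA), the TATA box (TATAAA) and the NF-kappaB consensus. A TATA box stood from -31 to -26 of the start in *Ccl12* and from -32 to -27 in *Ccl8*. *Ccl9* had TATA letters from -92 to -87, overlapping a match of the other strand from -94 to -89, and 1 farther up on that strand from -224 to -219, with an AP-1 match from -53 to -47 and an NF-kappaB match from -35 to -26. No capitals appear in *Ccr1* and *Ccr2*, and the windows of *Ccl3* and *Ccl6* had no match either. Over all 32851 promoters of this length, 13.6% held the TATA letters, 7.81% the AP-1 type, 6.95% the STAT6 type and 4.51% the NF-kappaB consensus. Among the 7 genes these were found in 3, 1, 0 and 1.

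Of the MCP ligands, *Ccl8* had the highest level per length in each group. It measured 32.5, 27.4, 29.8, 37.9 and 38.7 CPM in PBS replicates 1 to 5, then 140, 252, 400, 222 and 434 CPM in isotype replicates 1 to 5, and 89.0, 91.4, 129, 52.3 and 80.5 CPM in anti–IL-4Rα replicates 1 to 5. The 3 groups formed separate bands, with the anti–IL-4Rα libraries between the others. Its log2 fold change was 3.12 in isotype against PBS (edgeR, SE 0.30, adjusted p = 0.000177), or 8.70-fold. Under blockade it fell by 1.71 on the log2 scale (edgeR, SE 0.28, adjusted p = 0.00441) and remained 1.41 above the PBS group (edgeR, SE 0.28, adjusted p = 0.0252). The first 2 calls held in each of 15 fits with 1 library left out. The call against PBS was lost when any of PBS replicates 1 to 4 was left out, and likewise for anti–IL-4Rα replicates 1 and 5 (edgeR adjusted p up to 0.0739), with log2 fold changes from 1.24 to 1.55 over the 15 fits.

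*Ccl7*, which encodes a ligand of both CCR1 and CCR2, stood at 2.19, 1.90, 1.68, 2.05 and 3.08 CPM in PBS replicates 1 to 5, at 2.70, 9.64, 6.38, 3.79 and 15.8 CPM in isotype replicates 1 to 5, and at 1.47, 2.004, 2.86, 4.25 and 2.03 CPM in anti–IL-4Rα replicates 1 to 5. Isotype replicate 1 lay within the PBS range, so the groups overlapped, and the anti–IL-4Rα libraries bracketed the PBS libraries. The log2 fold change was 1.82 for isotype against PBS (edgeR, SE 0.42, adjusted p = 0.0125; two-sided p by exact permutation = 0.0159). It was -1.61 for anti–IL-4Rα against isotype (edgeR, SE 0.42, adjusted p = 0.0259; two-sided p by exact permutation = 0.0397). The second call was lost when isotype replicate 2, 3 or 5 was left out, and likewise for anti–IL-4Rα replicates 1, 2 and 5 (edgeR adjusted p 0.0530 to 0.0656). Against PBS the anti–IL-4Rα group had a log2 fold change of 0.21 (edgeR, SE 0.42, adjusted p = 0.820), which was -0.054 without anti–IL-4Rα replicate 4 (reversed in sign).

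*Ccl2*, the principal ligand of CCR2, measured 1.75, 1.70, 2.30, 1.64 and 2.16 CPM in PBS replicates 1 to 5. Isotype replicates 1 to 5 gave 2.23, 7.86, 4.73, 3.16 and 8.25 CPM, and anti–IL-4Rα replicates 1 to 5 gave 1.45, 2.004, 2.83, 5.83 and 2.67 CPM. Anti–IL-4Rα replicate 4 was above 3 of the 5 isotype libraries, while replicate 1 was below all PBS libraries. The difference between the anti–IL-4Rα and isotype groups did not pass (log2 fold change -0.84; edgeR, SE 0.38, adjusted p = 0.145), nor did that from the PBS group (0.62; edgeR, SE 0.39, adjusted p = 0.358), which was 0.23 without anti–IL-4Rα replicate 4 (0.762). The call in isotype against PBS (1.46; edgeR, SE 0.39, adjusted p = 0.0218) was lost without PBS replicate 2 (0.0525), isotype replicate 2 (0.0566) or isotype replicate 5 (0.0545).

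*Ccl12*, the mouse relative of *Ccl2* that also engages CCR2, was the least abundant of the MCP ligands per length in each group. It ranged from 0.421 to 1.10 CPM with PBS, from 1.001 to 3.05 CPM with isotype and from 0.916 to 1.52 CPM under blockade, on 22 to 249 counts per library. Its log2 fold change was 1.32 in isotype against PBS (edgeR, SE 0.33, adjusted p = 0.0172) and -0.55 under blockade (edgeR, SE 0.32, adjusted p = 0.249), or -0.32 without isotype replicate 5, and its isotype and PBS libraries overlapped.

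**Figure D2:**
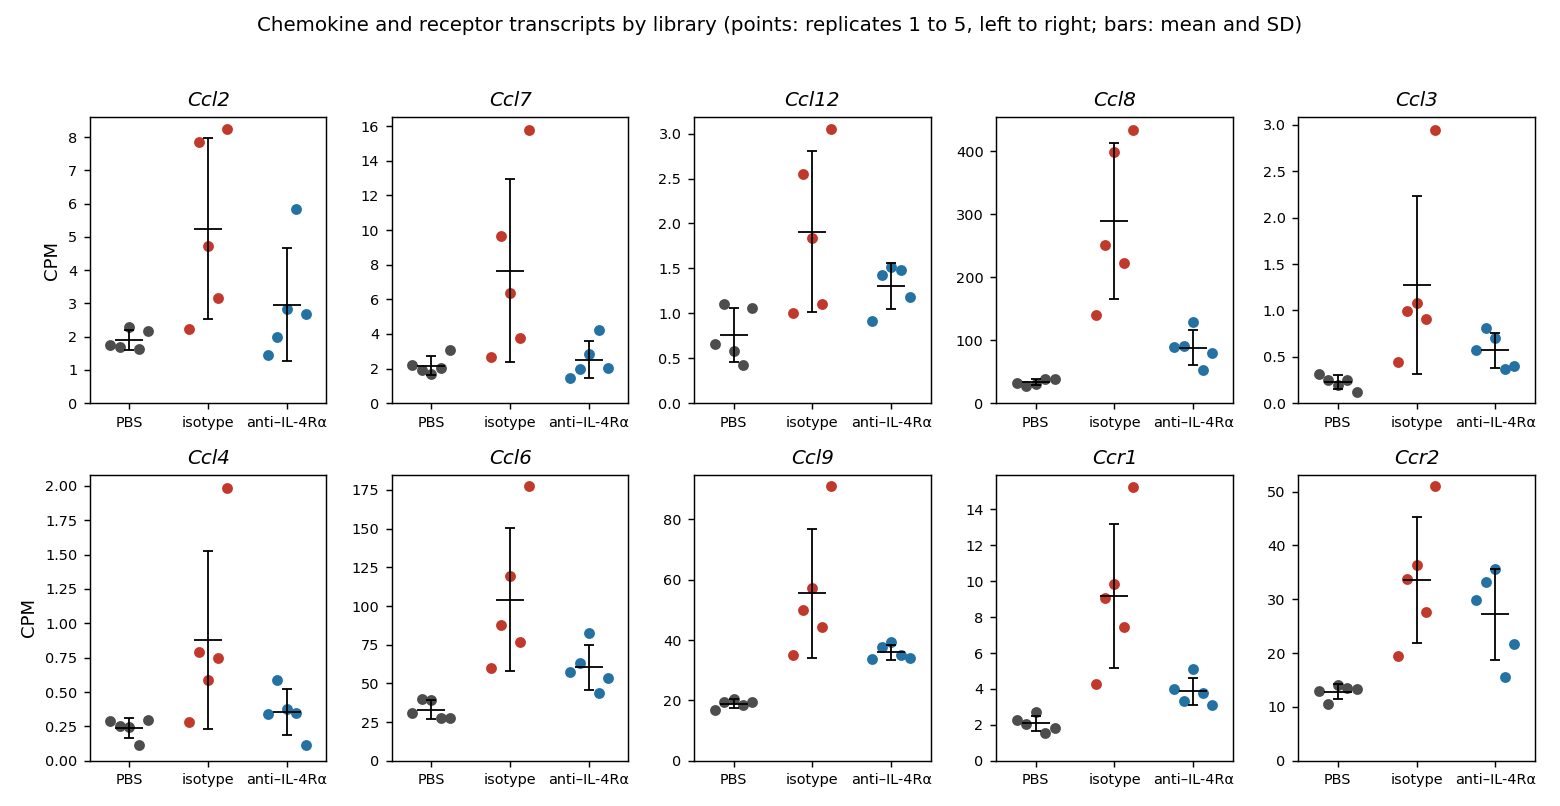
CPM (vertical axis, linear, starting at 0) of each of the 10 genes in each of the 15 libraries, with points for replicates 1 to 5 from left to right within a group and bars for the mean and SD. Isotype replicate 5 is the highest isotype library and replicate 1 the lowest in all 10 panels, and Ccl8 is the panel in which the isotype and anti–IL-4Rα points do not overlap.

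The difference between the neighbors *Ccl7* and *Ccl2* within a library differed between the antibody groups. In log2 CPM, *Ccl7* minus *Ccl2* was 0.44 ± 0.29 in the isotype group, where *Ccl7* was above *Ccl2* in all 5 libraries (0.26 to 0.93). It was -0.16 ± 0.24 in the anti–IL-4Rα group (-0.45 to 0.02), which did not overlap the isotype range, and 0.17 ± 0.36 in the PBS group (-0.44 to 0.50), which overlapped both. This difference was chosen after the values were seen and was not tested.

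Of the MIP ligands, *Ccl6* and *Ccl9*, which are adjacent and encode ligands of CCR1, were the most abundant per length. *Ccl6* measured 31.2, 39.9, 39.1, 27.8 and 27.8 CPM in PBS replicates 1 to 5, 60.0, 87.7, 119, 76.8 and 177 CPM in isotype replicates 1 to 5, and 57.5, 63.5, 82.9, 44.1 and 53.6 CPM in anti–IL-4Rα replicates 1 to 5. *Ccl9* measured 16.8, 19.4, 20.6, 18.4 and 19.5 CPM with PBS, 35.1, 49.9, 57.2, 44.3 and 91.1 CPM with isotype, and 33.7, 37.7, 39.5, 35.1 and 34.2 CPM under blockade, each in replicate order. For both genes every OVA-challenged library, with either antibody, was above every PBS library, and the anti–IL-4Rα libraries overlapped the lower isotype libraries. The spread of *Ccl9* was narrow with PBS (SD 1.43 CPM) and under blockade (SD 2.49 CPM) and wide with isotype (SD 21.4 CPM).

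*Ccl9* fell by 0.62 on the log2 scale under blockade (edgeR, SE 0.19, adjusted p = 0.0398) and stayed 0.93 above the PBS group (edgeR, SE 0.19, adjusted p = 0.0252). The first call held in 6 of 15 fits with 1 library left out. It was lost when PBS replicate 2 or 4 or isotype replicate 2, 3 or 5 was left out, and likewise for anti–IL-4Rα replicates 1, 2, 4 and 5 (edgeR adjusted p 0.0512 to 0.0861). Without isotype replicate 5 its log2 fold change was -0.37. The call against PBS was lost when PBS replicate 1, 2 or 4 was left out, and likewise for anti–IL-4Rα replicates 1 and 5 (edgeR adjusted p 0.0517 to 0.0714), with log2 fold changes from 0.89 to 0.96 over the 15 fits. *Ccl6* had wider spreads, and its log2 fold changes were 1.65 in isotype against PBS (edgeR, SE 0.26, adjusted p = 0.00190), -0.79 under blockade, which did not pass (edgeR, SE 0.25, adjusted p = 0.05001), and 0.86 against PBS (edgeR, SE 0.25, adjusted p = 0.0682). Under blockade *Ccl6* was called without isotype replicate 1 (edgeR adjusted p = 0.0178), isotype replicate 4 (0.0383) or anti–IL-4Rα replicate 3 (0.0235). Its value was -0.51 without isotype replicate 5 (0.119). Against PBS it was called without isotype replicate 1 (0.0478) or 5 (0.0384).

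*Ccl3* and *Ccl4*, which encode the inflammatory proteins MIP-1α and MIP-1β, were scarce. *Ccl3* ranged from 0.123 to 0.316 CPM with PBS, from 0.449 to 2.94 CPM with isotype and from 0.371 to 0.814 CPM under blockade. *Ccl4* ranged from 0.115 to 0.299, from 0.286 to 1.99 and from 0.118 to 0.588 CPM. The *Ccl3* libraries of both OVA-challenged groups were all above the PBS libraries, whereas those of *Ccl4* overlapped. Under blockade the log2 fold changes were -1.13 for *Ccl3* (edgeR, SE 0.41, adjusted p = 0.0764) and -1.28 for *Ccl4* (edgeR, SE 0.46, adjusted p = 0.0709). Both were called without isotype replicate 1 (edgeR adjusted p = 0.0254 and 0.0256), and without isotype replicate 5 the values were -0.57 (0.219) and -0.75 (0.196). Against PBS the anti–IL-4Rα group stood at 1.33 for *Ccl3* (edgeR, SE 0.45, adjusted p = 0.0995), called without isotype replicate 5 (0.0421), and at 0.57 for *Ccl4* (edgeR, SE 0.49, adjusted p = 0.521), the latter 0.30 without anti–IL-4Rα replicate 2.

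The receptor genes were both higher with isotype, and under blockade *Ccr1* was called lower while *Ccr2* was not; whether these changes differ from each other was not tested. *Ccr1* measured 2.25, 2.04, 2.72, 1.57 and 1.83 CPM in PBS replicates 1 to 5, 4.27, 9.09, 9.85, 7.44 and 15.2 CPM in isotype replicates 1 to 5, and 4.03, 3.35, 5.09, 3.75 and 3.09 CPM in anti–IL-4Rα replicates 1 to 5. *Ccr2* measured 12.96, 10.5, 14.01, 13.5 and 13.3 CPM in PBS replicates 1 to 5, 19.6, 33.7, 36.4, 27.6 and 51.1 CPM in isotype replicates 1 to 5, and 29.8, 33.3, 35.7, 15.6 and 21.7 CPM in anti–IL-4Rα replicates 1 to 5. For *Ccr1* only anti–IL-4Rα replicate 3 exceeded the lowest isotype library, whereas 4 of the 5 anti–IL-4Rα libraries did so for *Ccr2*.

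*Ccr1* rose by 2.14 on the log2 scale with isotype (edgeR, SE 0.27, adjusted p = 0.000641) and fell by 1.25 under blockade (edgeR, SE 0.27, adjusted p = 0.0127; two-sided p by exact permutation = 0.0159), and both calls held in each of 15 fits with 1 library left out. It was 0.89 above the PBS group after blockade (edgeR, SE 0.27, adjusted p = 0.0727), a difference called without isotype replicate 1 (0.0351) or 5 (0.0475). *Ccr2* rose by 1.39 with isotype (edgeR, SE 0.25, adjusted p = 0.00353). Under blockade its difference from the isotype group was -0.31 (edgeR, SE 0.24, adjusted p = 0.388; two-sided p by exact permutation = 0.381), and it stayed 1.08 above the PBS group (edgeR, SE 0.24, adjusted p = 0.0348), or 2.12-fold. The difference from the isotype group was -0.16 without anti–IL-4Rα replicate 4 (edgeR adjusted p = 0.653), -0.45 without isotype replicate 1 (0.156) and -0.11 with isotype replicate 5 left out (0.775). The call against PBS was lost when any of PBS replicates 1 to 4 was left out, and likewise for anti–IL-4Rα replicates 1, 2 and 5 (edgeR adjusted p 0.0551 to 0.0909), with log2 fold changes from 0.97 to 1.23 over the 15 fits.

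**Figure D3:**
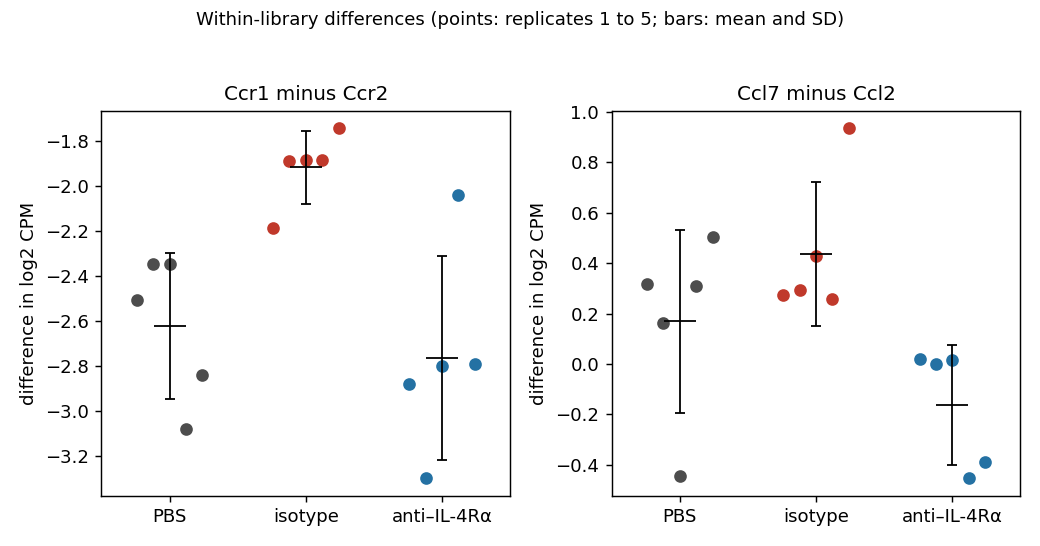
Difference in log2 CPM between 2 genes of the same library (vertical axis) in the 3 groups, for Ccr1 minus Ccr2 and for Ccl7 minus Ccl2, with points for replicates 1 to 5 and bars for the mean and SD. Ccr1 minus Ccr2 averages -2.62 in the PBS group, -1.92 in the isotype group and -2.76 in the anti–IL-4Rα group.

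Within a library, *Ccr1* minus *Ccr2* in log2 CPM was -2.62 ± 0.32 in the PBS group (-3.08 to -2.35), -1.92 ± 0.16 in the isotype group (-2.19 to -1.74) and -2.76 ± 0.45 in the anti–IL-4Rα group (-3.30 to -2.04). The isotype range lay above the PBS range, and 4 of the 5 anti–IL-4Rα libraries were below it, the exception being replicate 4. This difference was likewise chosen after the values were seen and was not tested. *Ccl9* minus *Ccl6* was -0.79 ± 0.23, -0.88 ± 0.13 and -0.71 ± 0.27 in the same order, and the ranges of all groups overlapped for this ligand pair. *Ccl3* minus *Ccl4* was -0.07 ± 0.73, 0.51 ± 0.23 and 0.72 ± 0.53.

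Compared per length (CPM per kb of exon), *Ccl8* was the most abundant in each group, at 65.1 ± 9.70 with PBS, 566 ± 242 with isotype and 173 ± 53.9 under blockade. *Ccl6* (18.5 ± 3.31, 58.1 ± 25.7 and 33.6 ± 8.07) and *Ccl9* (6.22 ± 0.471, 18.2 ± 7.04 and 11.8 ± 0.819) were next, with no overlap between the libraries of these 3 neighbors in the order. In the PBS group *Ccl7* followed at 2.72 ± 0.669, then *Ccr2* at 1.90 ± 0.203, *Ccl2* at 1.68 ± 0.263 and *Ccl12* at 1.42 ± 0.559, the last 3 overlapping one another in turn, and then *Ccr1* at 0.735 ± 0.155, *Ccl4* at 0.365 ± 0.112 and *Ccl3* at 0.297 ± 0.0947. In the isotype group the same order held down to *Ccr1* (3.24 ± 1.42), with every neighbor from *Ccl9* downward overlapping the next, and *Ccl3* (1.66 ± 1.26) was above *Ccl4* (1.33 ± 0.984). Under blockade *Ccr2* (4.02 ± 1.24) stood above *Ccl7* (3.15 ± 1.35) and *Ccl2* (2.60 ± 1.49), again within their spread. The 8 ligands summed to 96.3 ± 7.01 CPM per kb with PBS, 663 ± 283 with isotype and 228 ± 61.5 under blockade. *Ccl8* made up 67.4 ± 5.58% of that sum in the PBS group, 85.2 ± 2.07% in the isotype group and 75.2 ± 4.63% in the anti–IL-4Rα group, while the share of *Ccl6* was 19.4 ± 4.69%, 8.86 ± 1.10% and 14.9 ± 0.744%.

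**Figure D4:**
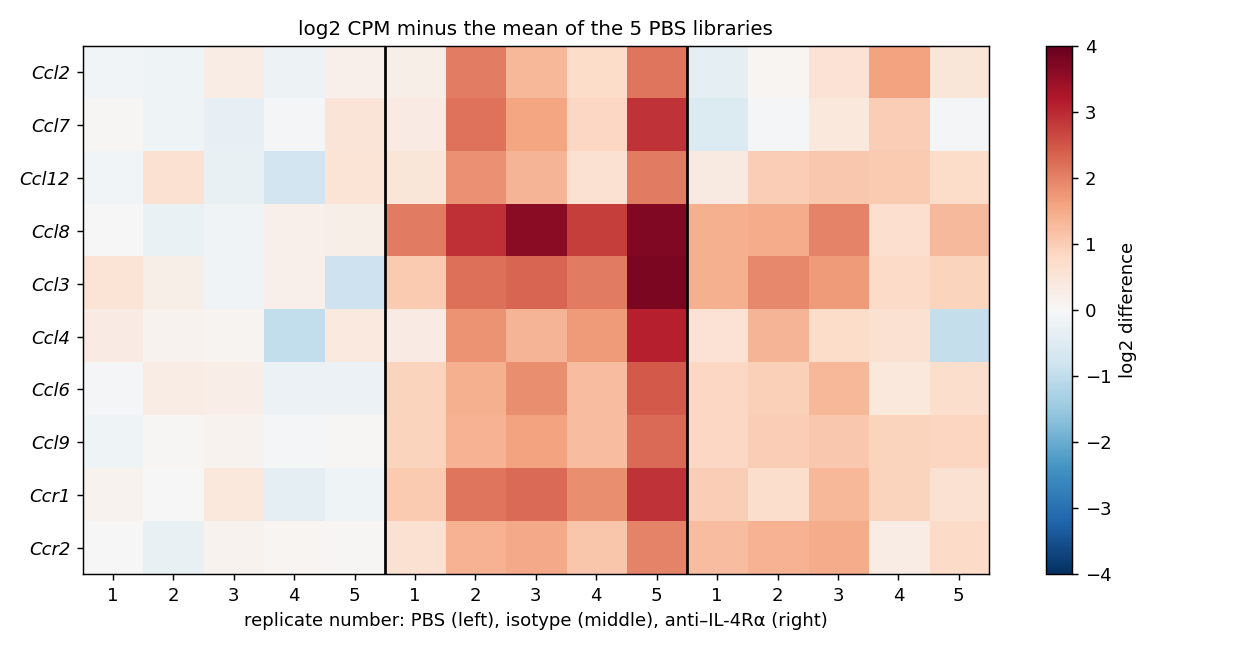
Log2 CPM of each of the 10 genes (top to bottom) in each of the 15 libraries (left to right) minus the mean log2 CPM of the 5 PBS libraries, with red above and blue below 0. Isotype replicate 5 is the darkest for all 10 genes within its group, and in anti–IL-4Rα replicate 4 Ccl2 is high while Ccr2 is close to the PBS level.

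Isotype replicate 5 was the highest isotype library for 10 of 10 genes and isotype replicate 1 the lowest for 10 of 10. Of all 19006 genes tested, 19.2% were highest in the former, 23.8% lowest in the latter and 7.59% both. Several leukocyte lists had the same highest library by their sums, among them the basophil, eosinophil and dendritic cell markers, so this order is not particular to the 10 genes. In the PBS group no library was highest for more than 4 genes (replicate 3). In the anti–IL-4Rα group replicate 3 was highest for 6 genes (*Ccl12*, *Ccl8*, *Ccl6*, *Ccl9*, *Ccr1* and *Ccr2*), while replicate 4 was highest for *Ccl2* and *Ccl7* and lowest for *Ccl8*, *Ccl3*, *Ccl6* and *Ccr2*. The coefficient of variation of *Ccl8* was 14.9% with PBS, 42.8% with isotype and 31.1% under blockade.

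Relations between genes were computed over the 15 libraries on log2 CPM centered within the groups, 6 in all, with 100000 permutations within groups. *Ccl2* and *Ccl7* were related (Pearson's r = 0.90, permutation p = 0.000370, adjusted over the 6 relations 0.00111; Spearman's rho = 0.83, p = 0.00290, adjusted 0.0174), and r was 0.86 without the 2 libraries farthest from the median of *Ccl2* (isotype replicates 2 and 5). *Ccl6* and *Ccl9* gave r = 0.88 (permutation p = 0.000360, adjusted 0.00111; rho = 0.75, p = 0.00853, adjusted 0.0256), and 0.69 without isotype replicates 3 and 5. *Ccl3* and *Ccl4* gave r = 0.72 (permutation p = 0.0210, adjusted 0.0299; rho = 0.59, p = 0.0356, adjusted 0.0535), and 0.70 without PBS replicate 5 and isotype replicate 5. *Ccl2* and its receptor gene *Ccr2* gave r = 0.14 (permutation p = 0.703, adjusted 0.703; rho = 0.13, p = 0.705, adjusted 0.705), and -0.26 without isotype replicates 2 and 5. This pooled value joins groups that differed: isotype replicate 5 was the highest of its group for both genes, while anti–IL-4Rα replicate 4 was the highest of its group for *Ccl2* and the lowest for *Ccr2*. Groups of 5 libraries are too small for an r of their own. The receptors *Ccr1* and *Ccr2* gave r = 0.70 (permutation p = 0.0145, adjusted 0.0291; rho = 0.60, p = 0.0311, adjusted 0.0535). Without isotype replicates 3 and 5, r of *Ccr1* with *Ccr2* was 0.52 and its p was no longer under 0.05 (permutation p = 0.112).

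By the highest Pearson r of centered log2 CPM over the 15 libraries, given as a description, the genes most like *Ccl2* were *Heatr1* (0.91), *Ccl7* (0.90), *Socs3* (0.89), *Tinf2* (0.87) and *Ddx21* (0.87). Those most like *Ccl8* were *Pik3cd* (0.97), *Alox5ap* (0.97), *Tyrobp* (0.97), *Inpp5d* (0.97) and *Laptm5* (0.97). Those most like *Ccr2* were *Naip6* (0.95), *Lrrc25* (0.94), *Sash3* (0.94), *Sla* (0.94) and *Ly86* (0.94).

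Of 14 monocyte markers, *Ccr2* among them, 10 were called higher with isotype (median log2 fold change 0.73), against 9.53% of all genes. Under blockade 3 were called lower (median -0.22), against 8.13% of all genes. After blockade 5 were called above PBS (median 0.87), against 2.28% of all genes. *Chil3*, called in the first 2 of these comparisons, passed the filter on low counts through the isotype libraries alone (0.225 to 2.06 CPM, against 0 to 0.173 CPM in the other groups), so its calls are no support. None of the 14 was at 3 or fewer counts in every library. The most abundant per length was *Hp*, which encodes haptoglobin, a protein that other cells secrete too, at 129, 138 and 608 CPM in the PBS, isotype and anti–IL-4Rα groups. Summed over the list, the level was 405, 413, 386, 380 and 692 CPM in PBS replicates 1 to 5, 611, 507, 643, 638 and 733 CPM in isotype replicates 1 to 5, and 1168, 759, 584, 1349 and 1328 CPM in anti–IL-4Rα replicates 1 to 5. Without *Hp*, left out after its values were seen, the sums were 326 ± 28.7, 488 ± 105 and 429 ± 66.0 CPM, highest in isotype replicate 5 (637 CPM). The mean log2 CPM of the 13 markers other than *Ccr2* was related to *Ccr2* by Pearson's r (r = 0.66, permutation p = 0.0249, adjusted over the 6 relations 0.0299), less so by rank (rho = 0.52, p = 0.0736, adjusted 0.0883). Without PBS replicate 2 and isotype replicate 5, r was 0.52 and its p was no longer under 0.05 (permutation p = 0.106). These 13 include *Hp* and *Chil3*. With the 11 others, an alternative chosen after seeing the data, r was 0.86 (permutation p = 0.00152; rho = 0.80, p = 0.00510), and 0.85 without the same 2 libraries. The part of cell number in the chemokine differences was not tested.

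Of 12 resident macrophage markers, 6 were called higher and 1 lower (*Marco*) with isotype (median 0.72), against 9.53% and 7.49% of all genes. Under blockade 3 were called lower (*Timd4*, *Mrc1* and *Cd163*, with a list median of -0.36), against 8.13% of all genes. *Marco* was scarce outside the PBS group (0.283 to 1.99 CPM with PBS, 0.0337 to 0.210 CPM with isotype, 0 to 0.173 CPM under blockade). It passed the filter on low counts through the PBS libraries, so its call is no support. The call of *Timd4* was lost in 7 of 15 fits with 1 library left out (edgeR adjusted p 0.0502 to 0.0882). *Cd163* rose by 1.85 on the log2 scale with isotype (edgeR adjusted p = 0.00157) and fell by 1.27 under blockade (edgeR adjusted p = 0.0133), and *Mrc1*, the mannose receptor gene, rose by 1.42 (edgeR adjusted p = 0.00216) and fell by 1.01 (edgeR adjusted p = 0.0150). None was at 3 or fewer counts in every library, and the most abundant per length was *C1qa*. Their summed level was 322, 342, 347, 322 and 332 CPM in PBS replicates 1 to 5, 434, 572, 812, 623 and 1029 CPM in isotype replicates 1 to 5, and 460, 484, 552, 409 and 461 CPM in anti–IL-4Rα replicates 1 to 5. As for the chemokines, isotype replicate 5 was the highest and replicate 1 the lowest of the isotype libraries. Other leukocyte lists also held calls: 4 of 7 tested neutrophil, 4 of 5 eosinophil, 5 of 8 mast cell, 4 of 5 basophil, 4 of 8 dendritic cell, 5 of 7 T cell and 2 of 6 B and plasma cell markers were called higher with isotype and 0 lower. Under blockade 3, 2, 2, 1, 3, 0 and 0 of these were called lower, in the same order, and 0 higher. Over all genes 9.53% were called higher and 7.49% lower with isotype, and 8.13% lower and 6.73% higher under blockade. *Mmp8* of the neutrophil list (4 isotype libraries and 1 PBS library) and *Ear1* of the eosinophil list (2 and 3) reached 10 counts in 5 libraries, none of them with anti–IL-4Rα, so the calls of *Mmp8* in both comparisons and of *Ear1* under blockade, included in these counts, are no support. The calls under blockade of *Cd209a*, *Mgl2* and *Ccr7* (dendritic cell) were lost in 12, 4 and 2 of 15 fits with 1 library left out. Those of *Mcpt8* (basophil) and *Retnlg* (neutrophil) were lost in 7 and 6. The calls of *Csf3r*, *Ear2*, *Tpsab1* and *Hdc* held in every such fit. The most abundant of each list per length were *Ltf*, *Ear2*, *Mcpt4*, *Gata2*, *Mgl2*, *Cd4* and *Jchain*. Of all these markers only *Epx* of the eosinophil list was at 3 or fewer counts in every library. In the PBS, isotype and anti–IL-4Rα groups in turn, the summed level was 9.88 ± 1.87, 24.5 ± 6.88 and 11.8 ± 5.28 CPM for eosinophil, 165 ± 20.99, 243 ± 63.9 and 182 ± 18.5 CPM for mast cell, 17.9 ± 1.92, 30.9 ± 10.4 and 23.1 ± 4.24 CPM for basophil and 69.2 ± 7.40, 93.4 ± 22.8 and 66.5 ± 10.8 CPM for dendritic cell markers, each list being lower on average under blockade than with isotype. It was 15.4 ± 2.18, 31.1 ± 8.96 and 26.6 ± 9.43 CPM for T cell markers. For mast cell, basophil and T cell markers the mean under blockade was lower by less than the SD of the isotype group. In the eosinophil list the fall lay mostly in *Ear2*. *Ear2* ranged from 4.97 to 9.73, from 10.01 to 18.4 and from 2.10 to 4.59 CPM in the same order of groups. *Siglecf* ranged from 1.53 to 4.80 CPM with isotype and from 0.988 to 4.72 CPM under blockade. *Ccr3* (3.003 to 8.29 and 1.93 to 8.39 CPM) and *Il5ra* (0.592 to 1.41 and 0.198 to 1.44 CPM) overlapped too. For neutrophil markers the summed level was 448 ± 92.4, 471 ± 93.6 and 573 ± 118 CPM, most of it *Ltf*, which encodes the lactoferrin that glands also secrete. Without *Ltf*, left out after its values were seen, it was 40.8 ± 9.56, 90.8 ± 23.9 and 44.8 ± 33.9 CPM, lower under blockade except in anti–IL-4Rα replicate 4 (105 CPM), without which the mean was 29.8 CPM. For B and plasma cell markers it was 4.27 ± 1.29, 32.0 ± 24.8 and 73.0 ± 75.6 CPM, the last of these resting on anti–IL-4Rα replicate 3 (206 CPM), 1 of the 2 libraries that stood apart, without which the mean was 39.7 CPM. The part of these cells in the chemokine differences was not tested.

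Nonleukocyte tissue differed between libraries as well. The lacrimal acinar markers, with *Obp1a* the most abundant per length, summed to 136, 3528, 211, 7487 and 51910 CPM in PBS replicates 1 to 5, to 33038, 167, 6578, 27143 and 4406 CPM in isotype replicates 1 to 5, and to 119069, 59676, 1290, 155030 and 147521 CPM in anti–IL-4Rα replicates 1 to 5. The median log2 fold change of these 8 markers under blockade was 2.65. Only *Aqp5* was called higher, a call lost in 12 of 15 fits with 1 library left out (edgeR adjusted p 0.0513 to 0.108), and none was at 3 or fewer counts in every library. With the lacrimal score as a covariate, 10 of 10 chemokine and receptor genes were called higher in isotype against PBS, 2 of 10 lower under blockade (*Ccl8* and *Ccr1*) and 0 of 10 higher than PBS after blockade. In that fit the same calls were made for 2489, 572 and 46 of 19006 genes. Without PBS replicates 1 and 3 and isotype replicate 2, the libraries with the lowest scores, the counts among the 10 were 6, 2 and 0, and among all 18677 genes tested 764, 622 and 6. With 46 and 6 calls among all genes, the counts of 0 against PBS are near the background and say nothing of these 10 genes. Without the 2 libraries that stood apart the counts were 9, 5 and 3, and among all 18751 genes tested 1391, 1579 and 1542. Of 6 skeletal muscle markers 5 were called lower with isotype (median -0.69), of 8 conjunctival epithelial markers 1 (*Krt14*) was called higher, of 7 endothelial and fibroblast markers 1 was called higher (*Pecam1*) and 1 lower (*Dcn*), and of 6 hair follicle markers none was called, by edgeR, in any of the 3 comparisons. Under blockade *Krt14* was called lower and *Dcn* and *Pax6*, an epithelial marker, higher, and none of the muscle markers was called. The shares of all genes were 9.53% higher and 7.49% lower with isotype, and 6.73% higher and 8.13% lower under blockade. The calls of *Krt14* and *Dcn* held in each of 15 fits with 1 library left out, while that of *Pecam1* was lost in 11 (edgeR adjusted p 0.0507 to 0.105) and that of *Pax6* in 9 (0.0503 to 0.0970). The call of *Dcn* under blockade was also lost with the lacrimal covariate (0.0536) and without the 3 libraries with the lowest scores (0.0608). The part of tissue composition in the chemokine differences was not tested beyond these fits.

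Among 14 other CC and CX3C chemokine genes, 13 of them tested, 2 were called higher with isotype, *Ccl5* (1.33; edgeR adjusted p = 0.00285) and the eotaxin gene *Ccl11* (0.50; edgeR adjusted p = 0.0400), with a median of -0.14. The call of *Ccl11* was lost in 9 of 15 fits with 1 library left out: without any 1 PBS library, without isotype replicate 3, 4 or 5, and with anti–IL-4Rα replicate 5 left out (edgeR adjusted p 0.0507 to 0.0973). Under blockade 4 were called lower, among them *Ccl17*, which encodes a Th2-attracting ligand of CCR4 (-1.88; edgeR adjusted p = 0.0159), *Ccl11* (-1.07; edgeR adjusted p = 0.00221) and *Ccl27a* (-0.74; edgeR adjusted p = 0.00743), and 1 was called higher, and *Ccl26*, not tested, was at 3 or fewer counts in every library. *Ccl5* was at 1.01, 2.52 and 2.57 CPM in the PBS, isotype and anti–IL-4Rα groups. The most abundant per length, the lymphoid chemokine gene *Ccl21a*, was not called in any of the 3 comparisons (edgeR adjusted p 0.172 to 0.8002). Of 14 other chemokine receptor genes, atypical ones included, 4 were called higher with isotype (median 0.11), and under blockade 2 were called lower and 1 higher. *Ccr3* and *Ccr7*, among those 4, are also counted in the eosinophil and dendritic cell lists. For both lists the shares of all genes were 9.53% higher with isotype, and 8.13% lower and 6.73% higher under blockade. The 1 receptor gene called higher under blockade is near that background. *Ccr3*, the eotaxin receptor gene, rose by 1.82 (edgeR adjusted p = 0.00598) and under blockade gave -0.19 (edgeR adjusted p = 0.723).

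Of 17 genes that act downstream of chemokine receptors, 11 were called higher with isotype and 0 lower (median 0.62), 3 lower under blockade (median -0.21) and 3 higher than PBS after blockade. The same calls were made for 9.53%, 7.49%, 8.13% and 2.28% of all genes. *Rac2*, a GTPase of leukocyte motility, rose by 1.17 (edgeR adjusted p = 0.00428), and *Fgr*, a Src family kinase gene of myeloid cells, rose by 1.15 (edgeR adjusted p = 0.00547). Under blockade *Rac2* and *Fgr* gave -0.31 (edgeR adjusted p = 0.313) and -0.37 (edgeR adjusted p = 0.252). Of 17 tested genes of cytokines and transducers that induce these chemokines, 8 were called higher with isotype (median 0.39) and 4 lower under blockade (median -0.26), against 9.53% and 8.13% of all genes. *Il6* rose by 4.04 (edgeR adjusted p = 0.00108) and fell by 2.29 (edgeR adjusted p = 0.0141), and *Il1b* rose by 2.02 (edgeR adjusted p = 0.00547) and fell by 1.81 (edgeR adjusted p = 0.0130). *Il4* and *Il13* rose by 1.74 (edgeR adjusted p = 0.0166) and 1.30 (edgeR adjusted p = 0.00717), and under blockade gave -0.41 (edgeR adjusted p = 0.485) and -0.70 (edgeR adjusted p = 0.0811), the latter being called without anti–IL-4Rα replicate 3 (0.0241). *Il6* and *Il4* were scarce (0.0382 to 0.151 and 0.0509 to 0.153 CPM with PBS), so their fold changes rest on few counts. The call of *Il4* with isotype was lost without the 3 libraries with the lowest lacrimal scores (edgeR adjusted p = 0.0701).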

How the data were processed

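Conjunctival RNA was selected for polyA and sequenced in pairs. The authors aligned the pairs to mouse B38, keeping unique hits, with Omicsoft Array Studio and Ensembl genes, and deposited estimated counts (expected counts) per gene, without scaling for depth. The kit was stranded, and the paper names the program's function for gene and transcript counts, but neither how it assigned reads to genes nor its use of strand. The paper reports 2 outliers without naming them, so whether they are the 2 libraries that stood apart here is not known. All 15 libraries were kept in the main fits here. Counts were rounded to whole numbers. Genes that reached 10 counts in 5 or more libraries were tested in edgeR 4.0.16 (TMM factors, quasi-likelihood test, one model of 3 groups, two-sided) in R 4.3.3, with Benjamini-Hochberg adjustment over 19006 genes. Log2 CPM used a prior count of 2. Names and lengths came from GENCODE M21, which matched 55141 of 55487 identifiers. Tables and plots used Python with pandas and matplotlib. Groups came from the sample labels. The genes and lists were chosen with earlier results of these data known. Named genes were all 10 members, each list's most abundant gene per length and up to 4 called genes with the largest fold change, and the 5 genes most like *Ccl2*, *Ccl8* and *Ccr2*; other genes named in small counts were chosen after their values were seen. DESeq2 1.42.0, limma 3.58.1 (voom and linear models), other factors and filters, a replicate block, a lacrimal covariate and leaving out libraries were alternatives.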

Additional observations from a re-analysis of the deposited data

Results flagged for a closer look

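Of 60 groups of 5 values examined, 7 held a library set far from the rest, and chance alone sets apart about 1 group in 20. *Ccl3* was at 2.94 CPM in isotype replicate 5, where the rest of the group ran from 0.449 to 1.08 CPM. *Ccl4* was at 0.115 CPM in PBS replicate 4, on 6 counts. *Ccl7* minus *Ccl2* in log2 CPM was 0.93 in isotype replicate 5. The monocyte markers summed to 692 CPM in PBS replicate 5, which was also the PBS library with the most lacrimal acinar transcript (51910 CPM). Of the 692 CPM, *Hp* made up 391 CPM, against 24.03 to 86.2 CPM of *Hp* in the other PBS libraries. Without *Hp*, the monocyte markers of PBS replicate 5 summed to 301 CPM, within the PBS range (294 to 362 CPM). Hair follicle markers summed to 1508 CPM in PBS replicate 2 and to 10133 CPM in isotype replicate 2, the latter being 1 of the libraries least like their group.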

How the results depend on the processing

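In isotype against PBS, 10 of 10 genes were called higher, and 8 to 10 in 12 other settings that kept the threshold of 0.05 (8 in the linear model on log2(FPKM + 1)). The count was 6 at an adjusted p under 0.01 and 6 without the 3 libraries with the lowest lacrimal scores, an alternative chosen after seeing the data. It was 9 to 10 on leaving out any 1 library. The 4 of 10 genes called lower under blockade (1546 of all genes) became 7 with DESeq2 (2122), 2 in the linear model (1200), in the fit of the 2 groups alone (509), with the lacrimal covariate (572) and without the 3 libraries (622), and 1 at an adjusted p under 0.01. With each library left out the count was 2 to 7: 7 without isotype replicate 1, and 2 without isotype replicate 2, 3 or 5, or with anti–IL-4Rα replicate 1, 2 or 5 left out. Over all genes the count moved too, to 2043 without isotype replicate 1 and to between 626 and 949 in the fits with 2. *Ccl8* and *Ccr1* were called lower in all of the alternative fits at an adjusted p under 0.05. The 3 of 10 genes called above PBS after blockade (434 of all genes) became 6 with DESeq2 (1238) and in the fit of the 2 groups alone (336), and 0 in the linear model, with the lacrimal covariate, without the 3 libraries and at an adjusted p under 0.01. With each library left out the count was 0 to 6: 0 without PBS replicate 1, 2 or 4, or with anti–IL-4Rα replicate 1 or 5 left out, 1 without PBS replicate 3, 5 without isotype replicate 1, and 6 without isotype replicate 5. In the fits with 0 at the threshold of 0.05, only 6 to 79 of all genes were called higher (37 to 65 in the leave-one-out fits, 79 in the linear model, 46 with the covariate and 6 without the 3 libraries), so 0 of 10 is near the background. The cause was not tested. The sign of *Ccl7* in anti–IL-4Rα against PBS turned without anti–IL-4Rα replicate 4 (-0.0542), and the value rose to 0.365 without PBS replicate 5, against 0.209. The correlation of *Ccl2* with *Ccr2* turned without the 2 farthest libraries (-0.26), and those of *Ccr1* with *Ccr2* (0.52) and of *Ccr2* with the monocyte markers (0.52) lost their p under 0.05. Over the 28 alternative fits, all at an adjusted p under 0.05, 11 of 280 calls of the 10 genes were lost in isotype against PBS, 26 of 112 were lost and 12 of 168 possible ones gained under blockade, and 28 of 84 were lost and 11 of 196 gained against PBS. In the fit of the 2 groups alone the calls under blockade of *Il6* and *Il1b* (both 0.0524), *Dcn* (0.0534), *Ccl17* (0.0556), *Cd163* (0.0558) and *Mrc1* (0.0594) were lost, and with the lacrimal covariate those of *Il6* (0.0546) and *Ccl17* (0.0685). Of the other genes on the lists, 75 were called in isotype against PBS, 58 of them whichever library was left out, 35 (15) under blockade and 24 (7) against PBS. Upper quartile and RLE factors turned no sign of the 10 genes. Over all genes, at an adjusted p under 0.05, the calls ranged from 764 to 2489 higher in isotype against PBS (1812 as reported). They ranged from 509 to 2122 lower under blockade (1546) and from 6 to 1542 higher against PBS (434). No share of all genes is given at an adjusted p under 0.01, so the counts of the 10 genes there have no background beside them. Upper quartile factors changed the split of all calls in isotype against PBS from 1812 higher and 1423 lower to 1479 and 1844.

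Replicate numbers recur in the groups, but same-numbered libraries did not deviate together (r from -0.38 to 0.45, over 0.1 in 4 of 15 pairs). With the replicate block 9 of 10 genes were called higher in isotype against PBS, 2 of 10 lower under blockade and 2 of 10 higher than PBS, and among all 19006 genes 1308, 1035 and 212. Depth limits *Ccl3* and *Ccl4*, whose lowest libraries had 7 and 5 counts.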

Other observations

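In anti–IL-4Rα replicate 4, *Ccl2* (5.83 CPM) and *Ccl7* (4.25 CPM) were the highest of their group while *Ccr2* (15.6 CPM), *Ccl8* (52.3 CPM) and *Ccl6* (44.1 CPM) were the lowest, and the lacrimal acinar markers were at their highest of all 15 libraries (155030 CPM). The neutrophil gene *Csf3r* rose by 2.11 (edgeR adjusted p = 0.000596) and fell by 1.53 (edgeR adjusted p = 0.00479), while *Cd4* rose by 1.70 (edgeR adjusted p = 0.00506) and gave -0.20 under blockade (edgeR adjusted p = 0.676). Whether such genes differ from each other in their response was not tested.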
